A study of Homo sapiens with 8 samples.

Results

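The replication-dependent histone genes were examined in HEK293T cells, an established human embryonic kidney line, by KAS-seq. In this method N3-kethoxal reacts with guanines in single-stranded DNA of living cells, and labelled fragments are enriched, sequenced and called as peaks, so that DNA opened by transcription or otherwise shows up as a peak. Untreated control cells and cells kept for 10 min in 0.5 mM vitamin C (ascorbic acid) were both labelled with 5 mM N3-kethoxal for 10 min, with 2 labelled libraries per condition. The 4 input libraries were not analysed here. All groups were of 1 cell line, and its cell line field carried a different number in most samples while every title named HEK293T.

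The genes were chosen by symbol among 19974 protein-coding genes of chromosomes 1 to 22 and X in the RefSeq table of GRCh38.p14, with no measured value in the rule: the numbered H2AC, H2BC, H3C and H4C genes and H1-1 to H1-5. This gave 68 genes, 54 on chromosome 6, 13 on chromosome 1 and 1, H4C16 (also called H4-16), on chromosome 12. They comprised 5 H1, 17 H2A, 18 H2B, 13 H3 and 15 H4 genes. A gene had a peak where at least 1 base of a peak lay in the gene widened by 1 kb on each side. A gene with a peak in all 4 libraries is called kept, one with a peak in each control but without any after vitamin C lost, and one with the opposite pattern gained.

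These genes supply most of the histone protein that packages newly copied DNA. H2A, H2B, H3 and H4 form the core of the nucleosome, and H1 binds the linker DNA. The genes are short, mostly without introns, lie in clusters that associate with the histone locus body of the nucleus, and are transcribed strongly in S phase under the control of NPAT, the cyclin E-CDK2 substrate of that body. Their mRNAs end in a stem-loop instead of a poly(A) tail.

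Promoters of 63 of the 68 genes were matched in the RefSeq promoter table (GRCh38.p14), which gives 250 bases before and 50 after each start site. H4C1, H4C3, H2AC12, H3C11 and H3C12 had no entry. The first pair of sequences shows the H4 gene of highest control strength whose peaks covered no tRNA gene, H4C15 (by control strength, the mean over both controls of the best peak's percentile by fold), and an H4 gene with no peak in any library, H4C6. The promoter of H2BC21, which shares an opened region with H2AC20, is shown as an example with all the searched motifs but 1. Capitals in these 3 sequences mark every match, on either strand, to any of 4 motifs. The first was the TATA box, TATAAA. The second was the NF-Y motif, CCAAT. The third was the core of the octamer that Oct-1 binds, ATGCAAA. The fourth was the H1 box, AAACACA. H4C15 held none of them. H4C15 lies at chr1:149861110-149861409 on the minus strand, H4C6 at chr6:26240143-26240442 on the plus strand and H2BC21 at chr1:149886633-149886932 on the minus strand.
H4C15: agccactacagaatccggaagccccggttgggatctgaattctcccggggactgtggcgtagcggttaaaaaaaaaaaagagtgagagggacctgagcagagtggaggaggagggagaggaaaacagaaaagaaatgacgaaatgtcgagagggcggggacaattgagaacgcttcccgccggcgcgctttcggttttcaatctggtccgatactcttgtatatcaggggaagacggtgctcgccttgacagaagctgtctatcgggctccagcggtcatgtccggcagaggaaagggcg
H4C6: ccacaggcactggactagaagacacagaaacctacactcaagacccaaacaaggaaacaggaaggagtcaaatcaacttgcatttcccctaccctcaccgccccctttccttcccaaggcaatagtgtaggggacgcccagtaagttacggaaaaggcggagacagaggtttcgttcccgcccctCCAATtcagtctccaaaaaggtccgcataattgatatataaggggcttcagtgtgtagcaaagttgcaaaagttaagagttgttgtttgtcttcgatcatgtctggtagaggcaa
H2BC21: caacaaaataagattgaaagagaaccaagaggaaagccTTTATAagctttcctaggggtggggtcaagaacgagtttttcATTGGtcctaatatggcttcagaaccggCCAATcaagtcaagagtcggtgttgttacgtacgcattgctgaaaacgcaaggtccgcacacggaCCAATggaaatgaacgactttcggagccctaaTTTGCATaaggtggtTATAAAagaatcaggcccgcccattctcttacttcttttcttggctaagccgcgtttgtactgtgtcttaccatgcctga

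A second pair is shown because its sequences are nearly the same while the calls differ. H4C11, which had a peak in all 4 libraries, and H4C12, which had none in any, are 98.3% identical over 300 bases. Reads that lie wholly in an identical stretch cannot be assigned to 1 of the 2 by sequence. The difference in calls is therefore uncertain as to the copy. H4C11 was also not kept in the gene alone, without the added 1 kb. Capitals mark here only the 5 bases that differ, which are G62A, T69A, A75G, C119T and G246T (H4C11 first, counted from 1 at the 5′ end of the window). H4C11 lies at chr6:27823842-27824141 on the plus strand and H4C12 at chr6:27831511-27831810 on the minus strand.
H4C11: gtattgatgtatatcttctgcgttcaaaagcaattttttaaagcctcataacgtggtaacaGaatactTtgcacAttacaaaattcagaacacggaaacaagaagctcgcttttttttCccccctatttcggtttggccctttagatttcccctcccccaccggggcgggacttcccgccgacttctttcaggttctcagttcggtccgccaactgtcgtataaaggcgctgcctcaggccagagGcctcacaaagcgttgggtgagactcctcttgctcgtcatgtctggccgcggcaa
H4C12: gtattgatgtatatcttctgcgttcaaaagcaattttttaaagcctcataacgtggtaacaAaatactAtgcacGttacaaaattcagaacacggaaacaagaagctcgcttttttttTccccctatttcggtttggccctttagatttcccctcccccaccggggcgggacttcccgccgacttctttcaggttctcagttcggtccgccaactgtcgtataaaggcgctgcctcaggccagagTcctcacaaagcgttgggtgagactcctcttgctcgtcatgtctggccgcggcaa

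On chromosome 1 the promoters of H4C14 and H4C15 were identical over 300 bases, those of H2AC18 and H2AC19 over 299 and those of H3C14 and H3C15 over 296. Reads from such copies cannot be assigned to 1 of them by sequence. How the authors treated reads with several matches is not given in the sources used here, so the calls at these genes are uncertain as to the copy. The annotated starts of H3C4 and H2AC7 coincide, so both have the same promoter.

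The matched promoters of the 5 classes held some of the motifs in different numbers. CCAAT was found in all 5 H1, 16 H2A, 18 H2B and 11 H3 promoters and in 3 of 13 H4 promoters, against 35.7% of all 27195 RefSeq promoters of the same length. The octamer core was found in 11 H2A and 14 H2B promoters, in 1 H3 promoter and in no H1 or H4 promoter, against 4.5% of all. H2A and H2B genes in divergent pairs share part of these bases. The 1 H3 match was at H3C4, whose promoter window is that of H2AC7, so its matches were counted in both classes. TATAAA was found anywhere, on either strand, in 42 of 63 promoters (66.7%), against 12% of all, with 53.8% to 75% in each class. In the direction of transcription and 15 to 50 bases before the start it was found in 35 (55.6%), against 2.83% of all. By class this share was 44.4% (H2B) to 68.8% (H2A). The H1 box was found in all 5 H1 promoters and 8 of 63 in total, against 5.77% of all. Matches of different motifs were counted separately, also where they overlapped. The median GC content was 43.0%, against 58.3% of all promoters. Kept genes and genes with no peak in any library had TATAAA, counted anywhere, in 24 of 34 and 14 of 20 promoters. They had CCAAT in 26 and 18, the octamer core in 12 and 10, and median GC contents of 45.3% and 41.2%. These are descriptions, and the groups were not compared by a test.

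Opened DNA at the histone genes was mostly still called after vitamin C. Of the 68 genes, 46 had a peak in control replicate 1, 45 in control replicate 2, 43 in vitamin C replicate 1 and 39 in vitamin C replicate 2. Over all protein-coding genes the shares with a peak were 43.2% and 39% in the controls and 23% in each vitamin C library. The mean number of histone genes with a peak was 45.5 ± 0.707 (SD, n = 2) without and 41.0 ± 2.83 after vitamin C, and the groups did not overlap. An exact two-sided permutation test gave p = 0.333, which is as low as a comparison of 2 with 2 libraries can go, and the same holds for every p of 0.333 given here. When every list was shortened to its 9816 best peaks by q, 38 and 42 genes had a peak without vitamin C and 43 and 39 after it, a difference of 1 in the other direction. Over all genes the shares in these equal lists were 24.7%, 24.7%, 23% and 22.9%. The same 37 genes were kept in them, against 14.8% of all genes, and none was lost or gained, against 1.44% and 0.821%. In these lists 22 histone genes had no peak in any library, against 65.7% of all genes.

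In total 37 genes were kept, 1 was lost, none was gained, 9 had a peak in 1 to 3 libraries in another pattern, and 21 had none in any. Over all protein-coding genes 17.5% were kept, 9.47% lost and 0.025% gained, and 52.5% had no peak. Both controls had a peak at 44 histone genes, and 37 of these (84.1%) were kept, against 3503 of 7047 (49.7%) of all genes. All genes are longer, with a median of 24171 bases against 494, so their windows are wider. In windows of 1 kb to each side of the start site, equal in size for all genes, 40 of 63 histone genes had a peak in each control, 38 in vitamin C replicate 1 and 35 in replicate 2. The shares over all 15812 genes with a start site were 22.4%, 19%, 9.9% and 9.47%. In these windows 33 histone genes (52.4%) were kept and none lost or gained, against 6.86%, 5.1% and 0.00632% of all genes, and 22 had no peak, against 74.1%. The 1 lost gene, H3C12, has no annotated start and is not among the 63. The log2 ratio of vitamin C to control in the number of genes with a peak was higher by 0.69 for histone genes than for all genes (exact permutation p = 0.333), and by 0.14 in lists of equal length.

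The best peak at a histone gene mostly ranked high in its list. The authors' fold over background was ranked for each peak among all peaks of that library, and ranks of lists of different length are not compared. The median percentile of the best peak was 97.3 and 95.3 in control replicates 1 and 2 and 89.3 and 92.2 in vitamin C replicates 1 and 2. Taking the best of several peaks raises a percentile, and shared peaks count for each gene. The same median over all genes with a peak was 74.3, 71.2, 62.3 and 61.5. In the windows of equal size around the start sites it was 68.3, 69.3, 65.0 and 65.7 over all genes and 97.3, 95.3, 89.3 and 92.2 at histone genes. The number of fragments piled up at the summit, solved from the deposited fold and p, ranged from 7 to 145 in control replicate 1, from 7 to 146 in control replicate 2 and from 9 to 92 in vitamin C replicate 2. It could not be solved as whole fragments in vitamin C replicate 1. Numbers of reads per library are unknown, so a gene without a peak had no signal detectable at this depth.

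**Figure D1:**
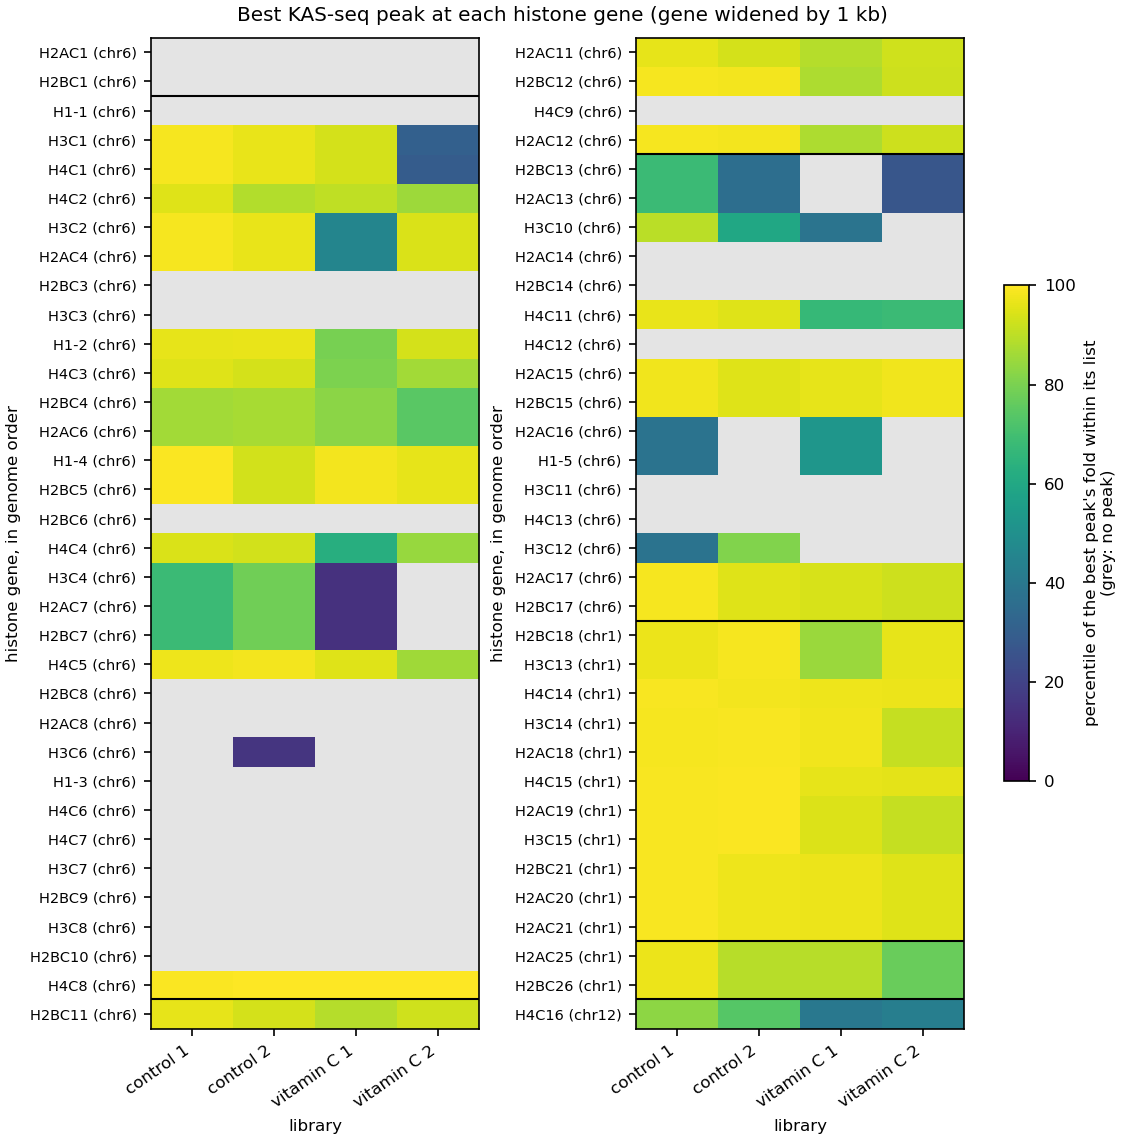
Percentile of the fold of the best peak among all peaks of a library (colour, 0 to 100) for each of the 68 histone genes (vertical axis, genome order) in the 4 libraries (horizontal axis); grey marks no peak, and black lines separate groups of genes more than 200 kb apart. All 13 chromosome 1 genes have a peak in every library, and H2BC8 to H2BC10 on chromosome 6 are grey apart from H3C6 in control replicate 2.

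Among linker histone genes 2 of 5 were kept, H1-2 and H1-4. The best peak at H1-2 stood at percentiles 96.4 and 96.7 in the controls and 79.3 and 93.6 after vitamin C, with its summit 1229 and 1227 bases from the H1-2 start in the controls and 1100 and 1229 after vitamin C, past the gene end. At H1-4 the percentiles were 99.3, 93.3, 98.4 and 96.2, in the same order of libraries, but that peak was shared with the H2B gene H2BC5. Its summit lay past the end of H1-4 in all 4 libraries, at 1870, 1770, 1447 and 1433 bases from the H1-4 start. H1-5 had a peak only in replicate 1 of each condition, at percentiles 38.0 and 52.4, and shared it with the H2A gene H2AC16. H1-1 and H1-3 had no peak. Peaks covered 3731 and 3227 bases of H1 windows in the controls and 3266 and 2349 after vitamin C, so the groups overlapped (exact permutation p = 0.667).

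H2A genes were kept in 11 of 17 cases and none was lost. H2AC19 was the strongest, at percentiles 98.9 and 99.3 in the controls and 94.6 and 91.4 after vitamin C, and H2AC18 followed at 98.5, 99.1, 97.7 and 91.3. Both values come from peaks shared with H3C15 and H3C14, with summits past the ends of the H2A genes. The peak nearest the H2AC18 start stood at 94.7, 92.7, 82.3 and 71.9. At H2AC19 the peak just before the start stood at 90.1 in control replicate 2 and at 88.2 and 62.9 after vitamin C, and in control replicate 1 it was 1 with the shared peak. The weakest kept H2A gene, H2AC6, stood at 86.2, 87.1, 82.7 and 74.5, sharing its peak with H2BC4. H2AC7, H2AC13 and H2AC16 had a peak in 1 to 3 libraries, and H2AC1, H2AC8 and H2AC14 had none. Peaks covered 17533.5 ± 1825 bases of H2A windows in the controls and 11767.5 ± 1003 after vitamin C (SD, n = 2), 67.1% of the control length. The groups did not overlap (exact permutation p = 0.333).

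H2B genes were kept in 9 of 18 cases and none was lost. The best peak at H2BC12 stood at 98.6, 98.1, 87.7 and 92.3, and at H2BC21 at 98.9, 97.6, 97.0 and 95.0, in the order given above. H2BC4 was the weakest of the kept H2B genes, with the values of H2AC6. H2BC7 and H2BC13 had a peak in 3 libraries each, and 7 genes had none: H2BC1, H2BC3, H2BC6, H2BC8, H2BC9, H2BC10 and H2BC14. Covered length in H2B windows was 19016.5 ± 2198 bases in the controls and 13219.5 ± 1514 after vitamin C (SD, n = 2), 69.5% of the control length (exact permutation p = 0.333, groups not overlapping).

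H3 genes were kept in 5 of 13 cases: H3C13, H3C14 and H3C15 on chromosome 1 and H3C1 and H3C2 on chromosome 6. H3C15 stood at 98.9, 99.3, 94.6 and 91.4 through the peak it shared with H2AC19, and H3C14 at 98.5, 99.1, 97.7 and 91.3 through the peak shared with H2AC18. H3C2, the weakest kept H3 gene, stood at 98.4 and 96.5 in the controls and 45.6 and 94.3 after vitamin C. The vitamin C replicates thus differed widely. The authors' fold of its best peak was 22.3, 15.5, 6.46 and 14.4, in the same order of libraries. H3C12 was the only lost gene of the 68. H3C4, H3C6 and H3C10 had a peak in 1 to 3 libraries, and H3C3, H3C7, H3C8 and H3C11 had none. Peaks covered 9092 ± 1134 bases of H3 windows in the controls and 5222.5 ± 67.2 after vitamin C (SD, n = 2), 57.4% of the control length (exact permutation p = 0.333, groups not overlapping).

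H4 genes were either kept, in 10 of 15 cases, or without a peak in any library, at H4C6, H4C7, H4C9, H4C12 and H4C13. H4C8 was the strongest, with ranks of 142 and 19 by fold in the control lists and 5 and 13 in the vitamin C lists. That peak covered a tRNA gene, TRX-CAT1-2, with its summit at -949 in control replicate 1 and -952 in the other 3 libraries, counted from the H4C8 start, and cannot be assigned to the histone gene. A separate peak at the H4C8 start itself stood at percentiles 80.8 and 59.7 in the controls and 32.2 and 11.8 after vitamin C. This was the only 1 of 55 histone regions that covered a tRNA gene. H4C15 stood at 99.1, 99.3, 96.2 and 95.9. In control replicate 2 its best peak was the one at H2AC19 and H3C15, which lie inside the long annotated H4C15 gene, and the peak over the H4C15 start itself stood at 99.1, 99.0, 96.2 and 95.9. H4C16 on chromosome 12 was the weakest of the kept H4 genes, at 82.9, 73.7, 39.9 and 42.6. Covered length in H4 windows was 19478.5 ± 1457 bases in the controls and 11249 ± 123 after vitamin C (SD, n = 2), 57.8% of the control length (exact permutation p = 0.333, groups not overlapping). H4C15, annotated over 16753 bases, gave 7129 and 7624 of the control bases and 3738 and 3533 of the vitamin C bases. Differences between classes in these shares were not tested.

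**Figure D2:**
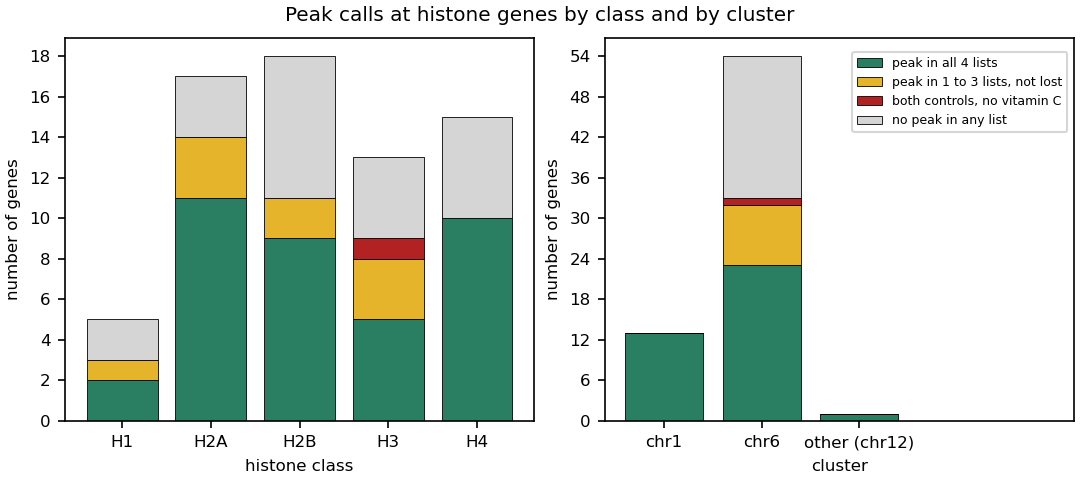
Number of histone genes (vertical axis) by class (left) and by cluster (right), divided by call: a peak in all 4 lists, in 1 to 3 lists, in both controls and no vitamin C list, or in none. The H4 class has kept genes and genes without a peak only, and all 13 chromosome 1 genes are kept against 23 of 54 on chromosome 6.

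The clusters differed in how many genes had any peak. All 11 genes of the main chromosome 1 cluster, which spans 105 kb from H2BC18 to H2AC21, and both genes of the pair H2AC25 and H2BC26 farther along chromosome 1 were kept. In the genes alone, without the added 1 kb, 9 of the 13 were kept, and H3C13, H3C14, H3C15 and H2AC19 were not. On chromosome 6, divided where neighbours lie more than 200 kb apart, 14 of 31 genes were kept between H1-1 and H4C8, 4 of 5 between H2BC11 and H2AC12, and 5 of 16 between H2BC13 and H2BC17. The pair H2AC1 and H2BC1, known as testis histones, had no peak. No chromosome 1 gene and 21 chromosome 6 genes were without a peak in any library, against 52.5% of all genes. Covered length was 16939.5 ± 551 bases on chromosome 1 in the controls and 10828 ± 160 after vitamin C (SD, n = 2), 63.9% of the control value. On chromosome 6 it was 32511.5 ± 3973 and 20916.5 ± 2000 bases, 64.3%. At H4C16 on chromosome 12 it was 1191 and 1165 bases in the controls and 340 and 370 after vitamin C, 30.1%. The groups did not overlap in any of the 3 (exact permutation p = 0.333 each), and the difference between clusters was not tested.

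Many of the genes without a peak were neighbours. From H2BC8 to H2BC10 (chromosome 6, 26216200 to 26273412, 57.2 kb), 9 of 10 consecutive histone genes had no peak in any library. The exception was H3C6, with a peak of 343 bases in control replicate 2 only, at percentile 15.6 of that list. Between this peak and the H4C8 region, 60.6 kb were free of peaks in all 4 libraries. The genes on either side, H4C5 and H4C8, were kept. H4C5 stood at percentiles 97.4 and 98.1 in the controls and 95.0 and 85.9 after vitamin C. Shorter runs without a peak held H2BC3 and H3C3 (21.3 kb free of peaks), H2AC14 and H2BC14 (11.9 kb), and H3C11 and H4C13 (23.1 kb). H1-1, H2BC6, H4C9 and H4C12 each lay alone between peaks, in 26.7, 14.4, 9.7 and 10.4 kb free of peaks.

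H2A and H2B genes often lie head to head with a shared promoter region. There were 11 such divergent pairs with start sites 194 to 248 bases apart. The members of a pair had the same call in all 11, 6 kept, 3 without a peak and 2 in part of the libraries. Their windows overlap, so the same peak usually counts for both. A peak covered both start sites in 6 and 3 pairs in the controls and in 3 and 2 pairs after vitamin C. Only at H2BC21 with H2AC20 and at H2AC25 with H2BC26 did it do so in all 4 libraries. At H2BC21 the peak over its start was 2415 and 2158 bases wide in the controls and 1171 and 1401 bases after vitamin C, where a second peak of 1132 and 408 bases lay beside it. Peaks covered 2415 and 2158 bases of the H2BC21 window in the controls and 2303 and 1809 after vitamin C, so the covered lengths overlapped.

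Peaks were shared widely among the genes. The peaks of the 4 libraries merged into 55 regions, of which 26 met more than 1 histone gene and together 37 of the genes. Of the 55 regions 32 had a peak in all 4 libraries, 3 in the controls alone (both replicates), none in both replicates of vitamin C alone, 13 in 1 control only and 1 in 1 vitamin C library only. The other 6 had mixed patterns. Over all 38555 merged regions the shares of these patterns were 13%, 16.5%, 0.124%, 52.3% and 3.04%. The number of distinct peaks was 54 and 52 in the controls and 50 and 53 after vitamin C, so the groups overlapped (log2 ratio of means -0.04, exact permutation p = 0.667). It was 0.35 with equal lists.

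The median histone peak was narrower in both vitamin C libraries than in either control, at the smallest p the design allows. Its width was 858.5 and 655.5 bases in the controls and 565.5 and 440 after vitamin C, a difference of -254 bases between means (exact permutation p = 0.333), and of -530 bases in lists of equal length. The median over all peaks of a list was 361 and 379 bases in the controls and 357 and 351 after vitamin C. Peaks covered 53841 and 47417 bases of the histone windows in the controls and 33612 and 30587 after vitamin C. The log2 ratio was -0.66 (exact permutation p = 0.333), and -0.52 in lists of equal length. In 24 of the 32 regions present in every library (75%) both vitamin C libraries covered fewer bases than both controls, and in none did both cover more. The share over all 5010 regions present in every library was 73.1%, with 0.838% in the other direction, so the histone regions were near this background. With equal lists it was 23 of 32 (71.9%), against 73.1% of all, and none in the other direction, against 0.573%. The median region kept 69.7% of its control length at the histone genes and 67.4% over all regions. Per gene, 26 of the 37 kept histone genes (70.3%) had fewer covered bases in both vitamin C libraries than in both controls and none had more, against 88.4% and 0.0856% of all kept genes. With equal lists 25 of 37 (67.6%) had fewer and none more, against 61.1% and 2%.

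Single genes differed in how much of the opened stretch was still called. H4C16 had the smallest share left among the 37 kept genes, as given above. At H3C1 peaks covered 1795 and 1701 bases in the controls and 675 and 743 after vitamin C, 40.6% of the control mean, and at H4C1 1308 in each control and 588 and 533 after vitamin C, 42.9%. H3C1 and H4C1 are neighbours that share peaks, so their values are not independent. In both windows the vitamin C libraries lay close together in covered bases and well below the controls. They differed widely in the percentile of the best peak. It was 93.5 in vitamin C replicate 1 and 30.7 in replicate 2 at H3C1, and 93.5 and 29.0 at H4C1. At H2AC4 the values were 406, 422, 388 and 383 bases, and vitamin C was lower again, at 93.1% of the control mean. These bases were the end of the H3C2 peak inside the H2AC4 window, and no peak met the H2AC4 gene itself. At H2BC26 they were 393, 357, 360 and 410 bases, and the groups overlapped. These genes were chosen after their values were seen.

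**Figure D3:**
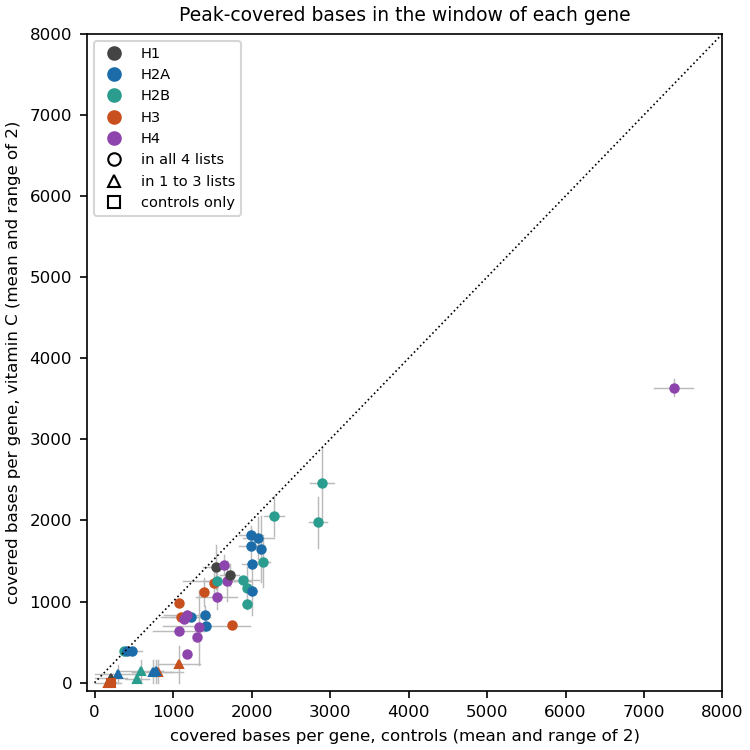
Bases covered by peaks in the window of each histone gene with a peak, as the mean of 2 controls (horizontal axis) against the mean of 2 vitamin C libraries (vertical axis); grey lines span the 2 libraries, colours give the class and symbols the call, and the dotted line marks equal values. All points but 1, H2BC26 at 375 and 385 bases, lie below the line.

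Opened DNA at these genes reached past their ends. Among 55 genes under 1 kb long with a start site, peaks covered the start itself in 27 and 20 genes in the controls and in 18 in each vitamin C library. Over all 15812 genes with a start site the shares were 5.68%, 4.83%, 2.56% and 2.42%. Over the 1000 bases before the start, 28.9 ± 2.2% of bases were covered in the controls and 18.4 ± 1.57% after vitamin C (SD, n = 2). From start to gene end the shares were 32.2 ± 7.19% and 19.4 ± 2.47%, and over 1000 bases past the gene end 37.7 ± 4.45% and 25.8 ± 0.508%. Each difference had the exact permutation p of 0.333, and the groups overlapped in none. The share after vitamin C was 63.6% of the control share before the start and 68.3% past the gene end, against 39.5% and 41.9% over all genes with a start site, where covered shares were also lower. Signal past a gene end can belong to a neighbour, since histone genes lie close together.

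**Figure D4:**
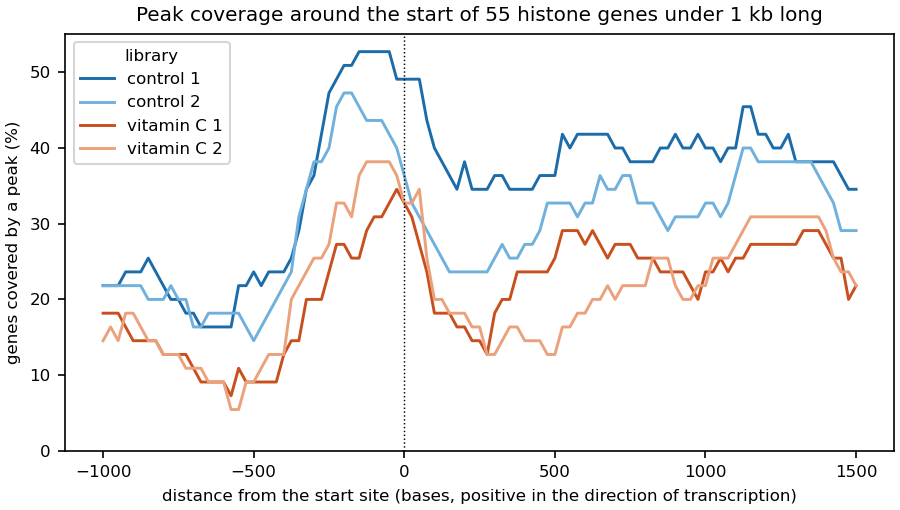
Share of 55 histone genes under 1 kb long that are covered by a peak (vertical axis, percent) at each distance from the start site (horizontal axis, bases), 1 line per library. At the start 49.1% and 36.4% of the genes are covered in the controls and 32.7% in each vitamin C library.

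Summits at several genes lay at nearly the same base in every library. The nearest summit to the H4C15 start stood at position -28 in all 4 libraries, where negative positions lie before the start. At H4C14, which has the identical promoter, it stood at -33, -28, -27 and -21, and at H4C5 at 35, 31, 30 and 27. At H3C14 it stood at -367, -366, -367 and -371. Of 34 kept genes with a start site 9 had the nearest summits of all libraries within 50 bases and 13 within 100. The median distance between start and nearest summit was 146 and 186 bases in the controls and 281.5 and 187.5 after vitamin C, a difference of 68.5 bases between means that rests on vitamin C replicate 1 (21.5 without it; exact permutation p = 0.333 with all 4). At H2BC12, H1-4, H2AC15, H2AC19, H1-2, H3C13, H2AC11 and H2BC11 the nearest summits of the libraries lay 845 to 2352 bases apart.

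H3C12 (chromosome 6, 27890315 to 27890826), the only gene lost by the rule, rested on different peaks in the controls. Control replicate 1 had a peak of 249 bases before the lower end of the gene (27889556 to 27889804, percentile 38.0). In control replicate 2 a peak of 1238 bases that also met H2AC17 and H2BC17 (27891667 to 27892904, percentile 80.9) reached 160 bases into the window. No vitamin C peak lay in the window, but one outside it still met a control peak. H3C12 was not lost in windows of 500 bp or 2 kb, in the gene alone or in lists of equal length. It was also not lost where the summit had to lie in the window.

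Of the genes with a peak in part of the libraries, H3C6, H2AC16 and H1-5 are described above. H3C4, H2AC7 and H2BC7 shared peaks, at percentiles 68.3 and 78.5 in the controls and 14.1 in vitamin C replicate 1, with none in vitamin C replicate 2. At −log10 q of at least 5 these 3 genes were also lost. H2BC13 and H2AC13 stood at 68.3 and 36.3 in the controls, had no peak in vitamin C replicate 1 and stood at 26.8 in replicate 2. At H3C10 the percentiles were 89.5 and 59.7 in the controls and 38.3 in vitamin C replicate 1, with no peak in replicate 2. Covered length at H3C10 was 1342, 803, 453 and 0 bases in the 4 libraries.

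Genes that make, process and use histones were counted by the same rule in whole genes widened by 1 kb. Of 26 genes for histone transcription and mRNA processing 12 were kept, 7 lost and none gained, 6 had a peak in part of the libraries and 1 had none. E2F1, a transcription factor of the G1/S transition, was the strongest kept, at a mean control percentile of 99.3. NPAT, the histone locus coactivator, had 4 and 2 peaks in the controls and none after vitamin C, and CCNE2, a cyclin E gene, 2 and 2 and none. Of 20 histone chaperone genes 12 were kept and 5 lost. NAP1L1, a chaperone of H2A and H2B, had the highest control percentile among those kept (97.6), and SUPT6H among those lost (79.3). Of 14 listed replication-independent histone genes 12 were found by symbol. The other symbols, H2BU1 and H2AW, are older names of H2BC26 and H2AC25. The symbol rule had placed this pair among the members, where both were kept, so their class differs between the 2 lists. Of the 12 genes found 6 were kept, led by H2AZ1 (99.2), and 3 lost, of which H2AZ2 was the strongest (74.6). All 14 germ-line histone genes had no peak in any library. Over all genes 17.5% were kept and 9.47% lost, so the first 3 lists held larger shares of both kept and lost genes, and the germ-line list held neither. Both calls need a peak in each control, and of all genes with that 49.7% were kept and 26.8% lost. Shares on that base were not computed for the lists, so their larger share of lost genes does not show an excess of loss.

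The cell type was checked with few markers. Of 5 genes listed for HEK293T, VIM had peaks in all 4 libraries and LIN28B in the controls only, while NES, PAX2 and SOX11 had none. Of 12 genes of other tissues 10 had no peak in any library, and ALB had one in vitamin C replicate 1.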

How the data were processed

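Per the submitters' processing notes, the tools were MACS2 2.2.7.1, Bowtie2 2.4.5, deepTools, cutadapt, Trim Galore and bcl2fastq 2.19, and the build hg38. For settings and order, which were not given in the sources used here, nothing is assumed. Each deposited narrowPeak list, 1 per labelled library, gives for every peak its position and summit, the authors' fold (a ratio over background), −log10 p and −log10 q, and a score that was not used. On chromosomes 1 to 22 and X there were 30351 and 24111 peaks in the controls and 9816 and 9896 after vitamin C, and other sequences were left out. Per library depth is unknown.

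Positions were compared with RefSeq genes of GRCh38.p14, the same build, and start sites came from the promoter table. Groups of libraries were tested by exact permutation, two-sided. The labels do not say whether replicates were separate cultures, so the p-values reflect spread among these libraries alone, possibly technical.

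The members and lists were chosen with earlier results of these data known. Named genes were every lost or partly kept member, every member without a peak, and for each class the 2 strongest kept members and the weakest; NPAT and other listed genes followed the same order of strength. H4C11, H4C12 and H2BC21 were added to the printed sequences after their values were seen, as were the promoter comparison and the counts of narrower regions. Alternatives were peaks at −log10 q of at least 5, lists of equal length, windows of 500 bp, 2 kb, the gene alone and the start site, the summit or 50% of a peak in the window, overlapping peaks, loss at the region, a block for replicate number, and the omission of single libraries. 1 gene of the list for other tissues is not reported here. On simulated lists 200 of 200 planted kept, lost, gained and peak-free genes were called as planted. These were genes whose windows overlapped no other window. The simulation therefore checked the counting only and did not cover genes that share peaks, as many histone genes do. Python 3.11.15, numpy 2.4.6, pandas 2.3.3, scipy 1.17.1 and matplotlib 3.10.9 were used.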

Additional observations from a re-analysis of the deposited data

How the results depend on the processing

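The number of kept genes, 37, was between 37 and 41 when each library was left out, which by construction cannot lower it. The same 37 genes were kept in lists of equal length and at −log10 q of at least 5. The number was 33 at the start site, where H2AC4 was no longer kept. H2AC12, H4C1 and H4C3 have no annotated start and could not be counted there. In the gene alone it was 28, and 9 of the 37 were no longer kept. The direction of covered length, peak width and the excess of histone genes over all genes held under each alternative. In lists of equal length the difference in genes with a peak was 1 instead of -4.5, the log2 ratio of distinct peaks 0.35 and the number of lost genes 0. By construction, equal lists cannot differ in total peaks. Lost genes numbered 4 at −log10 q of at least 5, 2 in windows of 500 bp and 0 in windows of 2 kb. In the gene alone 3 were lost, H2AC15, H2AC7 and H3C13. None was lost at the start site (0), and 0 when loss was judged at the control region. H3C12 has no annotated start, so it could not be called lost at the start site. It was also not among the genes lost in windows of 500 bp or in the gene alone. With each library left out lost genes numbered 1 to 5. There were 2 without control replicate 1, 5 without vitamin C replicate 1 and 3 without vitamin C replicate 2. In the gene alone 6 H2A and 2 H3 genes and 9 of 13 chromosome 1 genes were kept and the start-to-summit difference was -4.75 bases. At the start site the log2 ratio of distinct peaks was 0.034. The kept H1 genes numbered 1 with the summit, and 1 with 50% of the peak, in the window. Leaving out each library gave log2 ratios of distinct peaks of -0.084 to 0. Apart from the equal lengths the cause was not tested. With the replicate block the values were -4.5 genes, -0.66 for covered length, -254 bases for width, 68.5 bases for the summit, -0.04 for distinct peaks and 0.68 for the excess over all genes, so no direction changed. Replicate 1 minus replicate 2, taken over all genes, correlated at 0.00209 between control and vitamin C, so the numbers do not pair the libraries. Depth per library is unknown, so an absent peak is no absence of opened DNA.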
